A study of Homo sapiens with 6 samples.

Results

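The intermediate filament genes examined here encode vimentin (VIM), the keratins KRT7, KRT8, KRT18, KRT19 and KRT80, nestin (NES) and the lamins LMNA, LMNB1 and LMNB2. They were chosen by symbol, and all 10 were found among the 16279 genes of the deposited tables. RNA was sequenced from 12Z cells, an established line of human endometriotic origin that the labels call endometrial epithelial cells. The group named NC received no treatment (n = 3), with no vehicle named in the sources used here. The group named rhChemerin received recombinant human chemerin (rhChem157S, the adipokine ending at Ser157) at 10 ng/mL for 48 h (n = 3). Both groups are cultures of a single line, so the comparison asks what chemerin did to these cells and not to endometrium from different people. The libraries are labelled as biological replicates, and the sources used here do not say whether they came from separate cultures. If they did not, the p-values measure technical spread only.

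Intermediate filaments are rope-like polymers of coiled-coil proteins that carry mechanical load in the cytoplasm and under the nuclear envelope. Keratins form obligate pairs of a type I chain (acidic, such as KRT18 and KRT19) with a type II chain (KRT7, KRT8, KRT80), and the pair KRT8 and KRT18 is the keratin of simple epithelia such as the endometrial lining. Vimentin is the type III filament of fibroblasts and other mesenchymal cells, nestin is a type IV protein that co-polymerises with vimentin in progenitor and dividing cells, and the lamins build the meshwork that lines the inner nuclear membrane. Many cultured epithelial lines hold both vimentin and keratin filaments.

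The libraries held 35430881 to 38341643 counts on genes. Across genes, which do not count as replicates, log2 CPM (counts scaled to the library total) had Pearson correlations of 0.983 to 0.990 among the NC libraries. Those of rhChemerin 3 with the other libraries were only 0.948 to 0.976, so this library stood apart. Factors of the trimmed mean of M-values (TMM), which rescale each library for its make-up, were 1.04 to 1.05 in NC and 1.00, 0.973 and 0.898 in rhChemerin 1, 2 and 3. The results that rest on rhChemerin 3 are given with and without it.

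The sequence upstream of the genes is shown for VIM and LMNA, whose level was higher in every rhChemerin library than in every NC library, and for NES, whose level was lower in every one. Each run holds the 250 bases before a start site in the RefSeq table of human assembly GRCh38.p14, written 5′ to 3′ on the gene's own strand, with capitals for the GC box GGGCGG on either strand, the letters bound by SP1-type factors. The VIM window is chr10:17227991-17228240 on the plus strand. The LMNA window, the most upstream of 3 listed for that gene, is chr1:156082323-156082572 on the plus strand. The NES window is chr1:156677408-156677657 on the minus strand.
VIM: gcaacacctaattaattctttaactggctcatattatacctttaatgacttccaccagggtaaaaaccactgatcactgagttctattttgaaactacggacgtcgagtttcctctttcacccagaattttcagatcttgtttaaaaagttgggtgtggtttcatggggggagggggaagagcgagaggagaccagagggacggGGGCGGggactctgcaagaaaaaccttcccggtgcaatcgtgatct
LMNA: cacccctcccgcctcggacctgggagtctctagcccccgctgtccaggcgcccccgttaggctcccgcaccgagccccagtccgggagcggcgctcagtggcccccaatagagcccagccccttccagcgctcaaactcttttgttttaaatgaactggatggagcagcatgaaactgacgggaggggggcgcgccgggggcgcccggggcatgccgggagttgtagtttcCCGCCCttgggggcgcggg
NES: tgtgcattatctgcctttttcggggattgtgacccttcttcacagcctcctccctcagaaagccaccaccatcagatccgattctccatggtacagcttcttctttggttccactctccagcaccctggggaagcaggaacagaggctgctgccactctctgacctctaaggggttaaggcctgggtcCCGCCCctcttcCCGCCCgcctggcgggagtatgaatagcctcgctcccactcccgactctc
The VIM window was 46.0% G and C and held 1 GC box, whose first base lies 46 bases before the start. The LMNA window was 68.8% G and C, with 1 GC box and 1 CCAAT box. The NES window was 58.0% G and C and held 2 GC boxes. A GC box stood in 42.6% of all 35116 windows of this length in the table and a CCAAT box in 32.0%. Neither the TATA box TATAAA (10.7% of all windows), the AP-1 motif TGANTCA (6.57%) nor the E-box CANNTG (61.8%) was found on either strand of the 3 windows shown. No matches in these windows overlapped. Another LMNA window, chr1:156106466-156106715, held 2 E-boxes. GC boxes thus stood before VIM, LMNA and NES alike. Of the windows not shown, that of KRT8 held 0 GC boxes and that of LMNB2 held 1. Those of LMNB1 held 0 and 4, and those of LMNA 1 and 2. In all, 6 of the 10 genes had a window in the table.

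VIM was the most abundant of the 10 transcripts in every library and, of the 10, showed the greatest difference between the groups. Per length, as FPKM (fragments scaled to gene length and library total), the NC libraries 1, 2 and 3 held 881, 827 and 991, and the rhChemerin libraries 1507, 2304 and 3247. The groups did not overlap, and the treated libraries were spread far wider than the untreated ones. The group means were 899.6 ± 83.5 FPKM in NC and 2352 ± 871 in rhChemerin (SD, n = 3 each). From 65542 to 77020 counts lay behind each NC value and from 124609 to 261882 behind each rhChemerin value, so counting error is small beside the spread between libraries. Among all genes VIM ranked between 16 and 25 by FPKM in the NC libraries and 13, 7 and 3 in rhChemerin 1, 2 and 3. On counts, edgeR's quasi-likelihood test gave a log2 fold change of 1.54 ± 0.30 (SE), a fold of 2.90, with a 95% interval of 0.84 to 2.24 on the log2 scale. The unadjusted p was 0.00113 and the Benjamini-Hochberg adjusted p over 13311 genes was 0.0752, which missed the threshold of 0.05. DESeq2, the tool the study used, gave an adjusted p of 5.04e-06. Leaving out each library in turn kept the log2 fold change between 1.17, without rhChemerin 3, and 1.79, without rhChemerin 1, and edgeR's adjusted p passed without rhChemerin 1 (0.0266) and without rhChemerin 3 (0.0333). Over all alternatives run, the adjusted p of VIM ran from 9.69e-17 to 0.359. In RNA from whole cultures, more cells with vimentin and more VIM RNA per cell cannot be told apart.

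**Figure D1:**
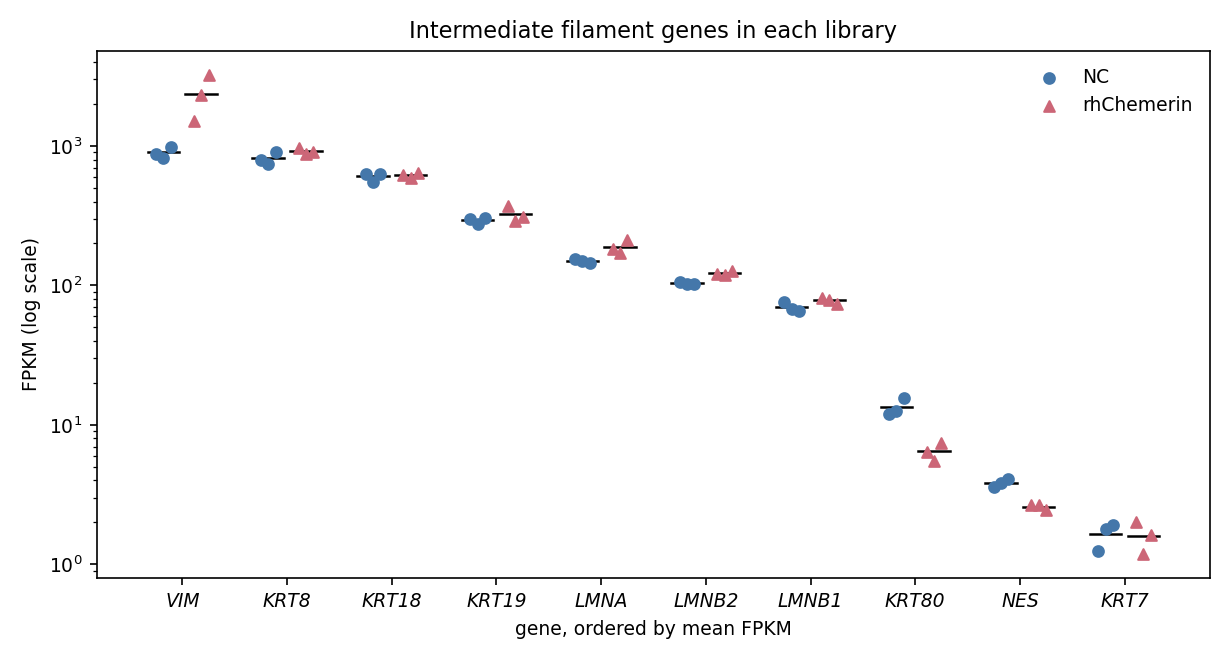
FPKM (log axis) of the 10 genes in each NC library (circles) and rhChemerin library (triangles), libraries 1 to 3 from left to right, with group means as lines. VIM lies at 827 to 991 FPKM in NC and at 1507 to 3247 in rhChemerin, and KRT80 and NES lie lower in every treated library. The points of KRT8, KRT18, KRT19, LMNB1 and KRT7 overlap between the groups on this scale.

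The order of the 10 genes by FPKM was the same in all 6 libraries, running VIM, KRT8, KRT18, KRT19, LMNA, LMNB2, LMNB1, KRT80, NES and KRT7. Within NC the ranges of the neighbours VIM and KRT8 overlapped, and all other neighbours were separated. Within rhChemerin every neighbouring pair was separated, VIM and KRT8 included. The most abundant cytoplasmic filament transcripts of 12Z cells were therefore those of vimentin and of the simple-epithelial keratins, with nestin and KRT7 near the bottom.

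KRT8 and KRT18, partners in the simple-epithelial filament, showed small differences. KRT8 was at 800.1, 748 and 910.4 FPKM in NC and 966, 872 and 913 in rhChemerin. KRT18 was at 634, 555 and 635 FPKM in NC and 624, 591 and 639.8 in rhChemerin. The ranges of both genes overlapped in FPKM. After TMM scaling KRT8 was higher in every rhChemerin library, with a log2 fold change of 0.29 ± 0.12 (SE, edgeR, Benjamini-Hochberg adjusted p = 0.201), and KRT18 still overlapped, at 0.16 ± 0.11 (adjusted p = 0.416). The 95% interval of the KRT18 difference, -0.10 to 0.42 on the log2 scale, leaves out a loss or a gain of the size seen for VIM. KRT19, a type I keratin of simple ducts and glands that lacks most of the usual tail, was at 301, 277 and 307 FPKM in NC and 374, 289 and 312 in rhChemerin. Here the highest value was rhChemerin 1 and the other treated libraries lay within or just above the NC range. Its log2 fold change was 0.27 ± 0.11 (edgeR, adjusted p = 0.209).

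KRT8 and KRT18 lie side by side on chromosome 12 and are not cleanly separable. In GENCODE release 29 on GRCh38, KRT8 spans chr12:52897187-52949954 on the minus strand and KRT18 chr12:52948871-52952901 on the plus strand, and 525 of their exon bases are shared on opposite strands. The annotation also lists 50 processed or other pseudogenes of KRT8, 68 of KRT18 and 5 of KRT19, none of which is in the deposited tables, so how reads shared with these copies were counted is not known. VIM (chr10:17228259-17237593, plus strand) overlaps the antisense genes VIM-AS1 over 641 exon bases and AL133415.1 over 619, and neither has a row in the tables. The strand setting of the counting is not given in the sources used here, so reads of overlapping genes on opposite strands may not be separated.

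The remaining keratins were scarce, and of these KRT80 had the larger difference. KRT80, a type II keratin of differentiating epithelia that lies at chr12:52168996-52192000 on the minus strand, was at 12.1, 12.6 and 15.5 FPKM in NC and at 6.42, 5.54 and 7.45 in rhChemerin. Every treated library lay below every untreated one, with means of 13.4 ± 1.86 and 6.47 ± 0.957 FPKM (SD, n = 3 each). The log2 fold change was -0.91 ± 0.17, a fold of 0.532, with a 95% interval of -1.30 to -0.52 (edgeR, unadjusted p = 0.000764, Benjamini-Hochberg adjusted p = 0.0752). DESeq2 gave an adjusted p of 0.000124. Leave-one-out values stayed between -1.08 and -0.79, and edgeR's adjusted p passed without rhChemerin 1 (0.0451) and without rhChemerin 3 (0.0248). Over all alternatives it ran from 1.12e-10 to 0.359. KRT7, a type II keratin of glandular epithelia (chr12:52232520-52252186, plus strand), rested on 115 to 205 counts a library. It was at 1.25, 1.81 and 1.93 FPKM in NC and 2.01, 1.19 and 1.63 in rhChemerin, with the groups interleaved. Its log2 fold change of 0.083 ± 0.28 (edgeR, adjusted p = 0.873) changed sign with library size scaling, and its 95% interval, -0.56 to 0.73, allows a change of about that size either way.

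NES (chr1:156668763-156677397, minus strand) was low and lower still after chemerin. It was at 3.56, 3.85 and 4.12 FPKM in NC and at 2.65, 2.69 and 2.45 in rhChemerin, from 510 to 826 counts a library. The groups did not overlap and the 3 treated libraries were close together, with rhChemerin 3 between the others after TMM scaling. The log2 fold change was -0.44 ± 0.11, with leave-one-out values of -0.48 to -0.39 (edgeR, adjusted p = 0.106). DESeq2 gave an adjusted p of 0.0157, a call that was lost without NC 2, NC 3 or rhChemerin 2. The range over all alternatives was 0.0149 to 0.377. VIM and NES, whose proteins share filaments, thus stood on opposite sides of the NC level.

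The 3 lamins were all higher by a small margin. LMNA, which encodes lamins A and C by splicing (chr1:156082573-156140089, plus strand), was at 154, 150.5 and 144 FPKM in NC and 183, 170.2 and 211 in rhChemerin. LMNB2, a B-type lamin that stays farnesylated at the membrane (chr19:2427638-2456996, minus strand), was at 106, 103 and 102 FPKM in NC and 121, 119.8 and 127 in rhChemerin. In both genes every treated library lay above every untreated one, most so rhChemerin 3. LMNB1, the other B-type lamin (chr5:126776623-126837020, plus strand), was at 76.6, 67.9 and 65.9 FPKM in NC and 81.9, 79.2 and 74.2 in rhChemerin. NC 1 exceeded rhChemerin 3 in FPKM, and the groups separated only after TMM scaling. The log2 fold changes were 0.47 ± 0.13 for LMNA, 0.37 ± 0.094 for LMNB2 and 0.29 ± 0.087 for LMNB1 (SE, edgeR, adjusted p of 0.119, 0.107 and 0.134). Without rhChemerin 3 that of LMNA was 0.32. DESeq2 called LMNA (adjusted p = 0.0204) and LMNB2 (0.0106) and not LMNB1 (0.0671), and the calls of LMNA and LMNB2 were each lost when any 1 NC library was left out. Over all alternatives the adjusted p ran from 0.000514 to 0.383 for LMNA and from 0.000432 to 0.379 for LMNB2. LMNB2 shares 257 exon bases with TIMM13 on the same strand, a gene with 1284 to 2187 counts a library against 17067 to 21947 for LMNB2.

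Counted together, none of the 10 genes passed edgeR's quasi-likelihood test at an adjusted p under 0.05, a threshold that 0.0301% of the 13311 genes tested passed. At an unadjusted p under 0.05 there were 8, of which 6 were higher (VIM, KRT8, KRT19 and the 3 lamins), against 11.4% of all genes, and 2 lower (KRT80 and NES), against 11.4%. DESeq2 called 5, with VIM, LMNA and LMNB2 higher (3.75% of all genes were called higher) and KRT80 and NES lower (5.30%). edgeR's likelihood-ratio test called 4, against 948 of all 13311 genes, and limma on log2(FPKM + 1) called 1, KRT80, against 179 of 13311. The groups did not overlap on TMM-scaled CPM for the same 6 higher genes, against 16.5% of all genes, nor for the same 2 lower genes, against 16.0%. The median log2 fold change of the 10 genes was 0.28, beside 0.012 over all genes tested.

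The scaling and the abundance of the genes move with this count. With library size as the only scaling the median of all genes moved to -0.12 and that of the 10 genes to 0.15. The share of all genes whose groups did not overlap then moved to 7.35% higher and 25.2% lower. Only VIM, LMNA and LMNB2 of the 10 stayed higher in every treated library, with log2 fold changes of 1.39, 0.33 and 0.24, and KRT80 and NES stayed lower, with -1.05 and -0.57. Abundant genes as a whole tended to be higher after chemerin. Among the 542 tested genes with a mean of at least 100 FPKM, 55.2% were higher in every rhChemerin library and 4.98% lower, with a median of 0.25, while among the 2280 genes under 1 FPKM the shares were 3.95% and 25.9% and the median -0.37. With library size scaling the share of higher genes at 100 FPKM or more was 34.3%. Of the 6 higher genes, VIM, KRT8, KRT19, LMNA and LMNB2 had a mean of at least 100 FPKM. LMNB1, with a mean of 74.3 FPKM, lay between 10 and 100 FPKM. There 23.9% of the 5152 genes tested were higher in every rhChemerin library and 10.7% lower.

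**Figure D2:**
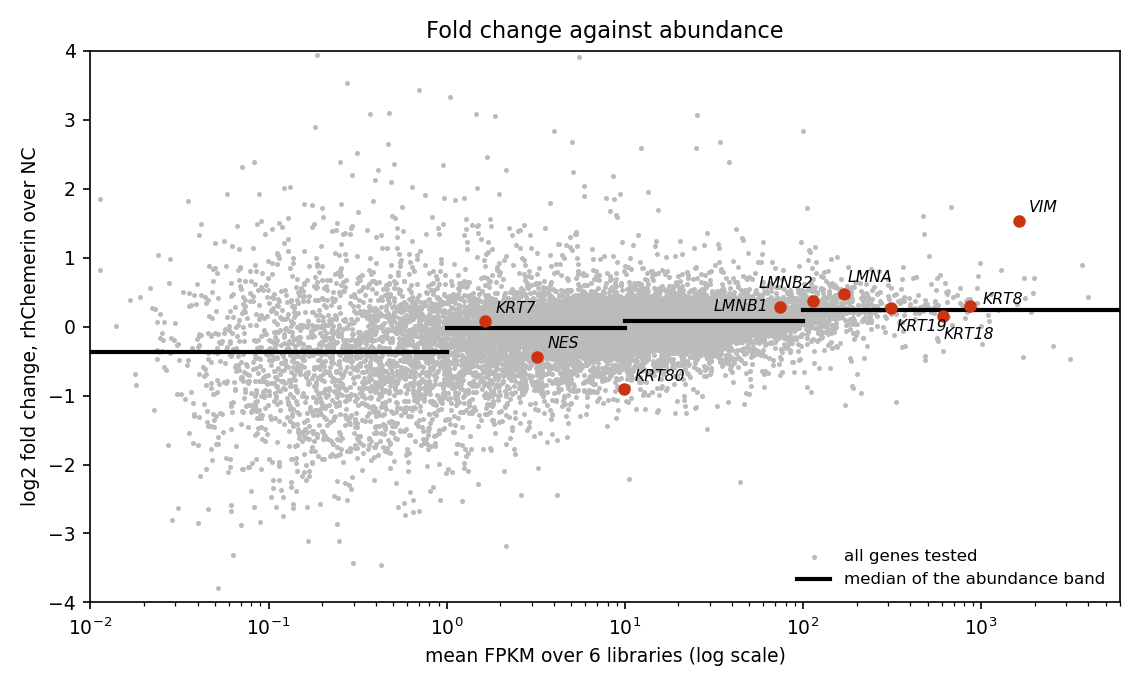
Log2 fold change (edgeR, TMM scaling) against mean FPKM over the 6 libraries (log axis) for all genes tested (grey) and the 10 intermediate filament genes (red), with the median of each abundance band as a black line; 8 genes lie outside the axes. The medians climb from -0.37 below 1 FPKM to 0.25 at 100 FPKM and above, KRT8, KRT18 and KRT19 sit on or near that line, VIM lies far above it, and KRT80 and NES lie below theirs.

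Set against genes of like abundance, VIM stood out and the abundant keratins did not. VIM had the 4th highest log2 fold change of the 542 genes at 100 FPKM or more. LMNA was 99th and LMNB2 165th of the same 542, and KRT8, KRT19 and KRT18 were 228th, 255th and 360th, around the middle. LMNB1 was 814th of the 5152 genes between 10 and 100 FPKM. KRT80 was the 218th lowest and NES the 778th lowest of the 5337 genes between 1 and 10 FPKM, where 18% of genes were lower in every treated library. KRT7 was 1782nd from the highest in that band.

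Ratios within a library do not depend on how libraries are scaled against each other. The share of VIM in the summed FPKM of the 10 genes was 29.7%, 30.1% and 31.2% in NC and 38.9%, 52.0% and 58.7% in rhChemerin. Every treated library lay above every untreated one, with means of 30.3% ± 0.779 and 49.9% ± 10.02 (SD, n = 3 each). The log2 ratio of VIM to the sum of KRT8 and KRT18 was -0.70, -0.66 and -0.64 in NC and -0.077, 0.66 and 1.06 in rhChemerin, so that VIM exceeded the keratin pair in 2 of the treated libraries and in none of the untreated ones. The difference of the means was 1.21, and 0.96 without rhChemerin 3, and that of the share was 19.5 percentage points, and 15.1 without rhChemerin 3. For both measures the exact two-sided permutation test gave p = 0.1, the smallest that 3 libraries against 3 allow (0.2 after Benjamini-Hochberg adjustment over the 4 measures tested).

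**Figure D3:**
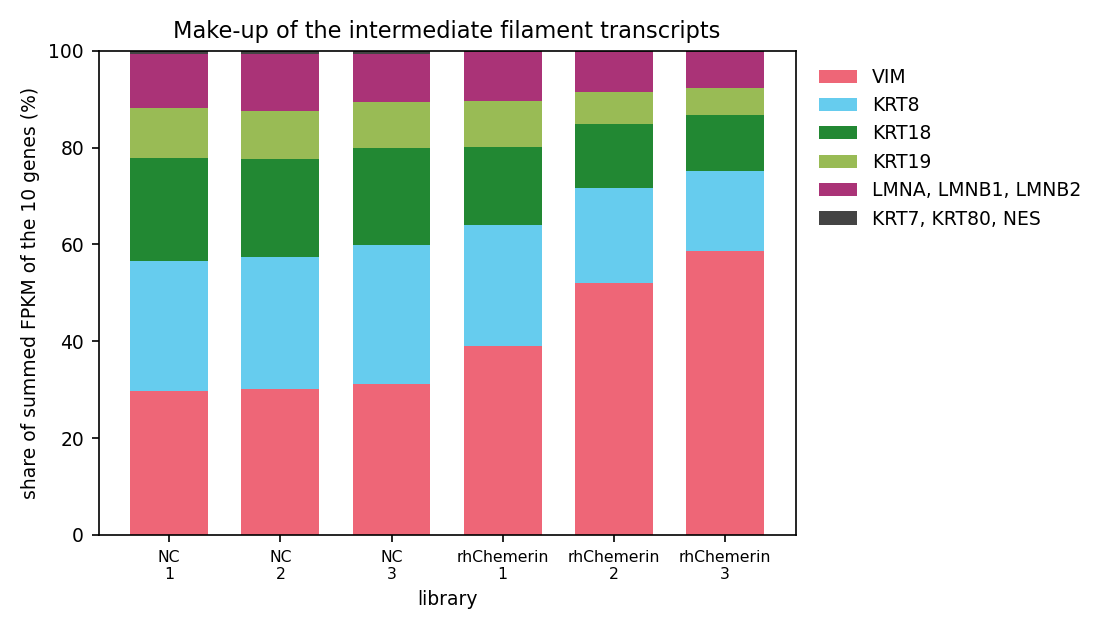
Share (%) of each gene or gene group in the summed FPKM of the 10 genes, 1 bar per library. VIM takes 29.7 to 31.2% of the NC bars and 38.9 to 58.7% of the rhChemerin bars, while KRT7, KRT80 and NES together are a barely visible line at the top.

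The summed FPKM of the 10 genes was 2970, 2747 and 3177 in NC and 3869, 4434 and 5534 in rhChemerin. The shares of KRT8 and KRT18 were accordingly smaller after treatment, while their own FPKM were not. KRT8 made up 26.9% to 28.7% of the sum in NC and 16.5% to 24.97% in rhChemerin, and KRT18 20.0% to 21.3% and 11.6% to 16.1%.

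The balance inside the keratin pair and inside the lamina differed less. The log2 ratio of KRT18 to KRT8 was -0.34, -0.43 and -0.52 in NC and -0.63, -0.56 and -0.51 in rhChemerin. The groups overlapped at NC 3 and rhChemerin 3, and the difference of -0.14 gave an exact two-sided permutation p of 0.2 (0.267 adjusted over the 4 measures). The log2 ratio of LMNA to LMNB1, the A-type to the B-type lamin, was 1.008, 1.15 and 1.13 in NC and 1.16, 1.10 and 1.51 in rhChemerin. Only rhChemerin 3 stood clearly above the NC range, and the difference of 0.16 gave an exact two-sided permutation p of 0.4 (0.4 adjusted). Without rhChemerin 3 the difference was 0.039.

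**Figure D4:**
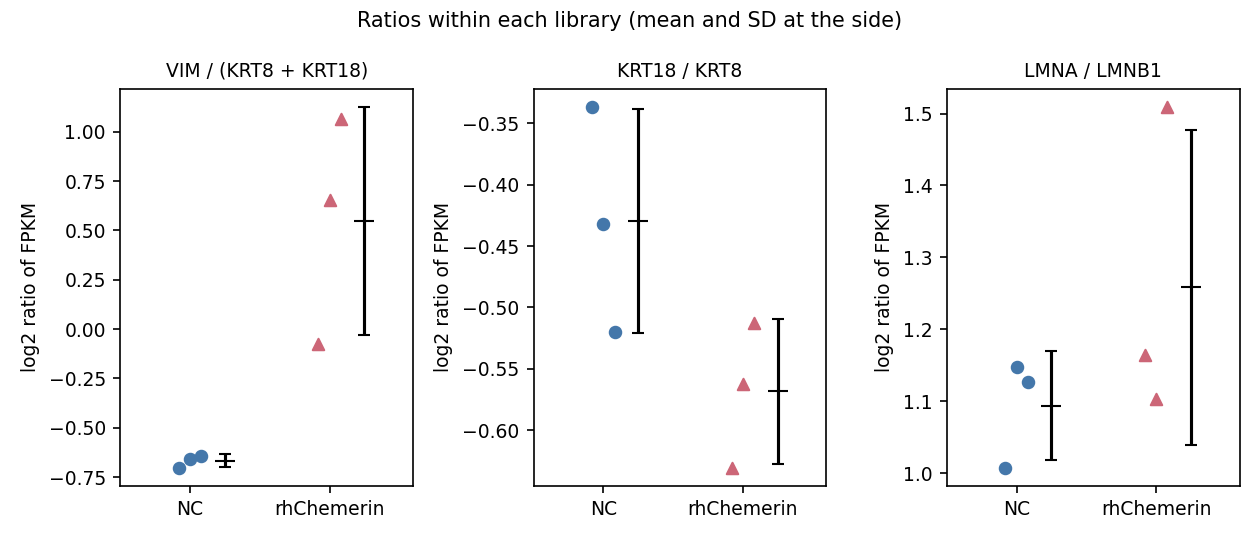
Log2 ratio of FPKM within each NC library (circles) and rhChemerin library (triangles), with the mean and SD of each group beside the points; each panel has its own axis range. The VIM ratio runs from -0.70 to -0.64 in NC and from -0.077 to 1.06 in rhChemerin, and the groups overlap in the other 2 panels.

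The other intermediate filament genes were then read from lists of the whole families, which count the 10 genes where they belong. Of 28 type I keratins 14 had a row and 6 were tested, and of 26 type II keratins 11 had a row and 6 were tested. After TMM scaling, where 16.5% of all genes were higher and 16.0% lower in every treated library, 2 keratins of the type I list were higher and 1 lower, with a median of 0.34 (log2), and 1 of the type II list was higher and 2 lower, with a median of -0.41. With library size only (7.35% and 25.2% of all genes) no keratin of either list was higher, and the 3 lower ones were KRT17, KRT80 and KRT86. No keratin passed edgeR's quasi-likelihood test. In each type I and type II list 2 had an unadjusted p under 0.05, 1 higher and 1 lower, beside 11.4% of all genes each way. DESeq2 called 1 in each list, KRT17 and KRT80, both lower (5.30% of all genes were). KRT17, a type I keratin of basal and wounded epithelium, was at 0.874, 1.96 and 2.54 FPKM in NC and 0.533, 0.327 and 0.635 in rhChemerin. Every treated library lay below every untreated one, with a log2 fold change of -1.70 ± 0.49 (edgeR, adjusted p = 0.126) and a DESeq2 adjusted p of 0.0165, over a range of 0.00218 to 0.383 in the alternatives.

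Among the keratins of stratified epithelium and hair, KRT10 was the most abundant. This keratin of the upper epidermis had means of 6.26 and 7.62 FPKM, above NES and KRT7 (log2 fold change 0.42 ± 0.19, edgeR adjusted p = 0.238). KRT34, a hair keratin, had a log2 fold change of 1.47 ± 0.73 (adjusted p = 0.273) that rested on rhChemerin 3 and was 0.31 without it. KRT79 (0.44 ± 0.76) changed sign without rhChemerin 3, and KRT81 (-1.04 ± 0.81) without NC 3, in which it had 214 counts against 25 to 58 in the other libraries. KRT86 had a log2 fold change of -1.39 ± 0.61 (adjusted p = 0.228). KRT81 and KRT86 are near-identical hair keratins, and how reads shared between them were counted is not known. KRT5, the basal-cell keratin, was at 0 counts in the 3 NC libraries and at 0, 18 and 11 in rhChemerin 1, 2 and 3.

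Of 12 type III, type IV and lens filament genes 11 had a row and 8 were tested. In every treated library 1 was higher, VIM, and 3 were lower, NES, DES and SYNM, with TMM and with library size scaling alike. Over all genes the shares were 16.5% higher and 16.0% lower with TMM, and 7.35% and 25.2% with library size only. With TMM 25.9% of genes under 1 FPKM, where DES lies, were lower. Between 1 and 10 FPKM, where NES and SYNM lie, 18% were. The median over the 8 was -0.37 (log2) with TMM, beside 0.012 over all genes tested. No gene of the list passed edgeR's quasi-likelihood test. At an unadjusted p under 0.05 there were 4, of which 1 was higher and 3 lower, beside 11.4% of all genes each way. DESeq2 called VIM higher (3.75% of all genes were) and NES and DES lower (5.30%). DES, the type III filament of muscle, was scarce, with 79, 85 and 70 counts in NC and 22, 16 and 14 in rhChemerin. All treated libraries lay well below the untreated ones, with a log2 fold change of -2.09 ± 0.33 (edgeR, adjusted p = 0.0707), the opposite direction to VIM, the other type III gene tested. DESeq2 gave DES an adjusted p of 1.79e-05, over a range of 3.87e-06 to 0.359 in the alternatives. SYNM, the filament linker synemin, was lower in every treated library (-0.30 ± 0.11, adjusted p = 0.188). INA (0.82 ± 0.43, and 0.25 without rhChemerin 3) and NEFL (0.074 ± 0.54), both neuronal filament genes, overlapped between the groups.

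**Figure D5:**
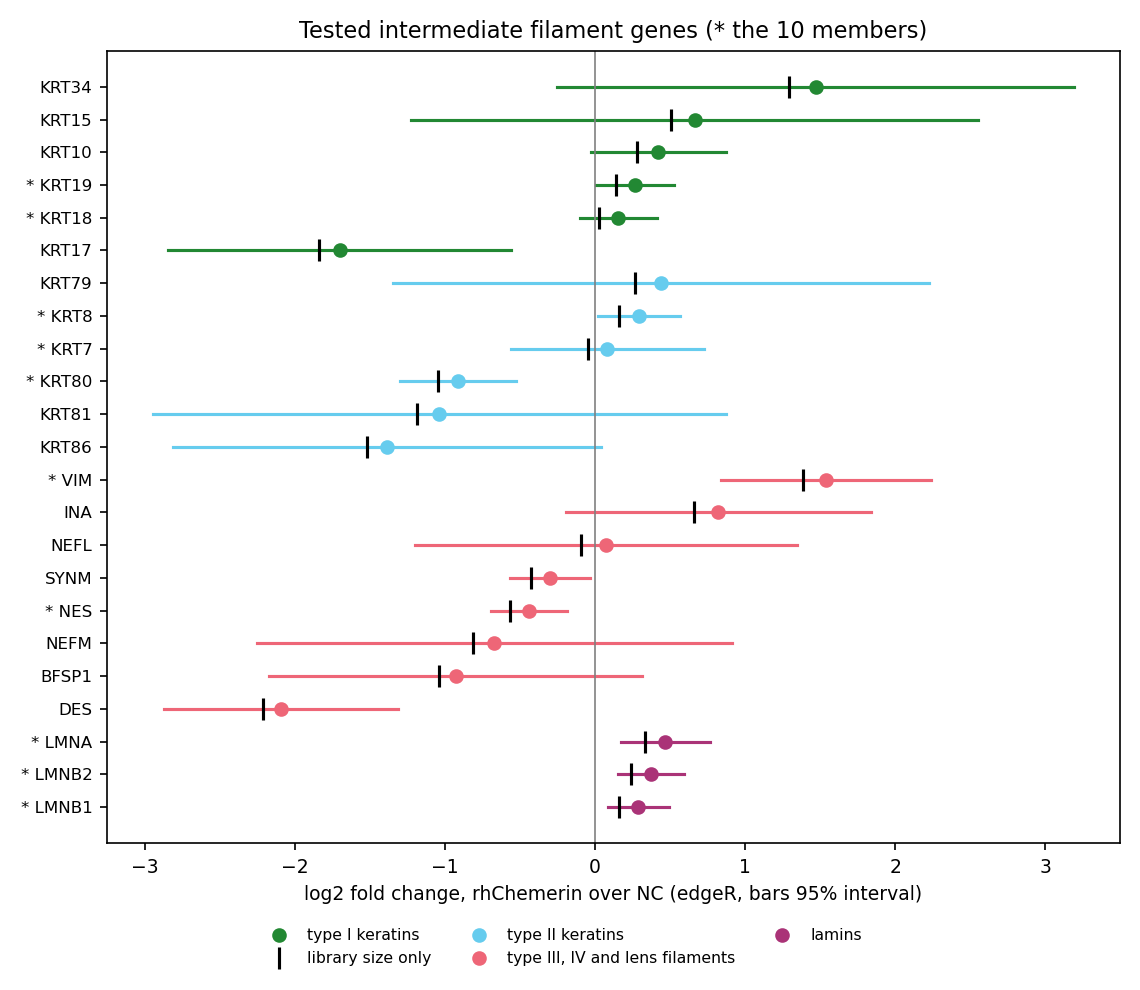
Log2 fold change of rhChemerin over NC for the tested intermediate filament genes by family (dots, edgeR with TMM scaling, bars 95% intervals), with the value under library size scaling as a tick; asterisks mark the 10 genes. VIM at 1.54 and DES at -2.09 lie at the 2 ends of the type III group, the 3 lamins lie between 0.29 and 0.47, and KRT7 and NEFL change sign with the scaling.

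The counts for genes that anchor filaments or process lamins depended on the scaling. Of 14 filament linkers and keratin organisers 13 were tested. After TMM scaling 1 was higher and 1 lower in every treated library, beside 16.5% and 16.0% of all genes, and the median over the list was -0.12 (log2). With library size only 1 was higher and 5 lower (EPPK1, DSP, JUP, PKP4 and FAM83H), beside 7.35% and 25.2% of all genes. PLEC, which encodes the cross-linker plectin, was the higher one, at 57.2, 60.5 and 62.9 FPKM in NC and 66.04, 72.5 and 104 in rhChemerin. Its log2 fold change was 0.57 ± 0.21 (edgeR, adjusted p = 0.171), and 0.29 without rhChemerin 3. EPPK1, the related epithelial linker epiplakin, was the lower one, with -1.80 ± 0.34 (edgeR, adjusted p = 0.0752, DESeq2 adjusted p = 4.35e-05, range 2.19e-06 to 0.359). EPPK1 was scarce, with means of 0.451 FPKM in NC and 0.119 in rhChemerin. Among genes under 1 FPKM 25.9% were lower in every treated library. JUP, the desmosomal plakoglobin that links keratin to the membrane, had 61.3, 55.2 and 51.1 FPKM in NC and 49.0, 39.1 and 30.01 in rhChemerin. Its groups were apart in FPKM and overlapped after TMM scaling, with a log2 fold change of -0.39 ± 0.15 (edgeR, adjusted p = 0.189). DST, another plakin, had -0.051 ± 0.095.

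All 18 genes of lamin processing and the nuclear envelope were tested. After TMM scaling 3 were higher and 2 lower in every treated library, shares close to the 16.5% and 16.0% of all genes, and the median over the list was 0.033 (log2). With library size only 1 was higher, BANF1, and 6 were lower (RCE1, ICMT, EMD, LEMD2, TOR1AIP1 and TOR1AIP2), beside 7.35% and 25.2% of all genes. BANF1, a chromatin protein that binds lamina partners, was at 60.6, 54.7 and 61.9 FPKM in NC and 70.6, 66.2 and 69.1 in rhChemerin (0.35 ± 0.090, edgeR adjusted p = 0.110, DESeq2 adjusted p = 0.0348, range 0.0271 to 0.385). The treated libraries all lay above the untreated ones. EMD, the inner membrane protein emerin, had 0.080 ± 0.083, and ICMT, the enzyme that methylates farnesylated lamins, had -0.025 ± 0.087, both overlapping between the groups after TMM scaling. EMD changed sign with library size scaling and ICMT without rhChemerin 1. In neither list did a gene pass edgeR's quasi-likelihood test, and 3 in each had an unadjusted p under 0.05. Of these, 1 linker was higher and 2 lower, and 2 lamina genes were higher and 1 lower, beside 11.4% of all genes each way.

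Among the genes whose profile over the 6 libraries lay closest to that of VIM were FST, CAV1, KCNQ5 and ODC1, out of 11030 genes with a mean of at least 1 FPKM. Likeness was the root-mean-square distance between log2 CPM profiles centred on their mean over the 6 libraries, and it was 0.169 for FST, 0.199 for CAV1, 0.237 for KCNQ5 and 0.238 for ODC1. CAV1, the coat protein of caveolae, was at 28.3, 25.3 and 33.5 FPKM in NC and 51.5, 58.0 and 78.3 in rhChemerin. FST, which encodes the activin antagonist follistatin, was at 0.725, 0.721 and 0.868 FPKM in NC and 1.19, 1.44 and 2.58 in rhChemerin. In each of them rhChemerin 1 was the lowest and rhChemerin 3 the highest treated library, as in VIM, and since they were picked for this no test applies.

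The labelled cell type was checked against marker genes other than the 10. Of the epithelial markers EPCAM and CDH1 (E-cadherin) were scarce, with mean FPKM in NC of 0.599 and 0.310, and MUC1 stood at 12.7. The fibroblast markers ran from 1.55 for PDGFRA to 1042 for COL1A1, a fibroblast collagen. Between them were DCN at 18.6, PDGFRB at 19.6, THY1 at 51.3, LUM at 115 and COL3A1 at 616. The summed FPKM of the 9 epithelial markers was 13.7 to 16.9 in NC and 8.03 to 11.3 in rhChemerin, most of it MUC1. After TMM scaling 3 of the 7 tested (EPCAM, CDH1 and CLDN7) were lower in every treated library and none higher, beside 16.0% lower over all genes and 25.9% among genes under 1 FPKM, where these 3 lie. MUC1 was at 14.4, 13.6 and 10.2 FPKM in NC and 9.85, 6.91 and 6.79 in rhChemerin, apart in FPKM and overlapping after TMM scaling, with a log2 fold change of -0.57 ± 0.17 (edgeR, adjusted p = 0.135, DESeq2 adjusted p = 0.0404, range 0.00168 to 0.398). The summed FPKM of the 7 fibroblast markers was 1603 to 2070 in NC and 1131 to 2197 in rhChemerin, nearly all of it from collagen genes and LUM, and the ranges overlapped. After TMM scaling 1 of these 7, PDGFRA, was higher in every treated library and none lower, beside 16.5% higher over all genes. PDGFRA stayed so with library size only, and had a log2 fold change of 0.79 ± 0.22 (edgeR, adjusted p = 0.124, DESeq2 adjusted p = 0.0206, range 0.00411 to 0.394). PDGFRB went the other way, at -0.60 ± 0.37 (edgeR, adjusted p = 0.363), and overlapped between the groups. Of the 7, 5 had a log2 fold change above 0 and 2 below it, PDGFRB and COL3A1 (-0.16). The 4 smooth muscle markers, DES among them, summed to 7.59 to 9.10 and 2.49 to 3.80 FPKM, with MYH11 at 0 to 2 counts. Most of that sum was CNN1, with means of 7.24 and 2.22 FPKM. CNN1 had a log2 fold change of -1.60 ± 0.35 (edgeR, adjusted p = 0.0892, DESeq2 adjusted p = 0.000205, range 2.30e-09 to 0.359). ACTG2 went the other way, from 3, 8 and 4 counts in NC to 8, 32 and 70 in rhChemerin (below edgeR's filter, DESeq2 adjusted p = 0.0202, range 0.000399 to 0.377). The endothelial markers summed to 1.61 to 2.01 and 0.991 to 1.41 FPKM. Of the 3 tested, 1 (VWF) was lower in every treated library after TMM scaling and 2 overlapped, beside 25.9% lower among genes under 1 FPKM. VWF had a log2 fold change of -1.97 ± 0.52 (edgeR, adjusted p = 0.117, DESeq2 adjusted p = 0.00489, range 6.37e-08 to 0.377). Of 4 leukocyte markers 3 had a row and summed to 122 to 171 and 92.7 to 136 FPKM, nearly all of it CD14 and CD68, with PTPRC at 4 to 12 counts. CD14 was at 51.5, 41.1 and 36.9 FPKM in NC and 21.2, 15.2 and 6.64 in rhChemerin, with a log2 fold change of -1.49 ± 0.35 (edgeR, adjusted p = 0.1003, DESeq2 adjusted p = 0.000432, range 8.75e-08 to 0.370), and CD68 overlapped (0.11 ± 0.26). The part of these markers in the VIM, KRT80, NES and DES differences was not tested.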

How the data were processed

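Total RNA from 12Z cells (6 libraries, 3 NC and 3 rhChemerin) was extracted with TRIzol, and libraries were made with the VAHTS Universal V6 kit. According to the submitters' processing notes and the study's methods, the authors trimmed reads with fastp, aligned them with HISAT2 to GRCh38.p13 and counted them per gene with HTSeq. Versions of these tools, the strand setting and the annotation release are not given in the sources used here. The authors deposited the read counts per gene, with no normalization, and a table of FPKM, in which the count is divided by gene length and by the library total. Dose and time come from the study's methods.

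Counts were tested in R 4.3.3 with edgeR 4.0.16 (TMM, filterByExpr with the group, glmQLFit and glmQLFTest, Benjamini-Hochberg over 13311 genes). The SE is the log2 fold change divided by the root of the F statistic. Groups were called apart when no TMM-scaled CPM values overlapped. Alternatives were DESeq2 1.42.0 on the whole table (adjusted p for 14382 genes), the likelihood-ratio test, DESeq2's size factors, library size only, no filter, a minimum of 10 counts, a fit of log2(FPKM + 1) or log2(FPKM + 0.1) in limma 3.58.1, a block on the replicate number, and each library left out in turn. DESeq2 with each library left out was added after the data were seen. Ratios were tested with exact permutation tests in SciPy 1.17.1. The tests were tried on simulated data. No pair of libraries agreed within counting noise.

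The 10 genes and the family and marker lists were chosen with earlier results of these data known, so no list was tested as a set. Named beyond the 10 are family genes called by edgeR or DESeq2, the 3 most abundant others of each list, overlapping genes, and the 5 genes nearest VIM, of which 1 is not reported here. KRT5, the genes named for library size scaling only and the markers were named after their values were seen. Positions are from GENCODE release 29, upstream sequence from a RefSeq table.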

Additional observations from a re-analysis of the deposited data

How the results depend on the processing

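The number of genes called of all tested was 4 with edgeR and moved to 1302 with DESeq2, 948 with the likelihood-ratio test, 17 without a filter, 14 with at least 10 counts in every library, 179 and 23 with limma on log2(FPKM + 1) and log2(FPKM + 0.1), and 0 to 844 with 1 library left out. Of the 10 genes 0 were called by edgeR, 5 by DESeq2, 4 by the likelihood-ratio test, 1 by limma on log2(FPKM + 1) and 0 to 2 with 1 library left out, where VIM and KRT80 passed without rhChemerin 1 or rhChemerin 3. DESeq2 with 1 library left out, an alternative chosen after seeing the data, called 658, 283 and 518 genes without NC 1, 2 and 3 and 2616, 584 and 1695 without rhChemerin 1, 2 and 3, with 4, 2, 2, 5, 4 and 6 of the 10 among them, VIM and KRT80 each time. The number of the 10 whose groups did not overlap went from 8 to 5 with library size only and with both limma settings, and their median log2 fold change from 0.28 to 0.15 in all 3. The share of all genes whose groups did not overlap, in either direction, was 32.5% in the main fit and in each of these 3 settings.

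With the replicate number as a block edgeR called 1 gene and none of the 10, at a median of 0.28. The labels number the replicates without saying that a number marks a shared culture, so the numbers were not taken to pair the libraries. Deviations from the group mean correlated at 0.241, 0.00147 and 0.247 in same-numbered libraries and at -0.306 to 0.106 in differently numbered ones. For NC 1 and NC 3 the same-numbered value was the highest, and for NC 2 it was not. Whether the numbers mark a pairing was not tested.

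Signs changed for genes near 0 or resting on 1 library. KRT7 went to -0.048 with library size only and to -0.032 and -0.052 with limma on log2(FPKM + 1) and log2(FPKM + 0.1), and ran from -0.079 to 0.26 with 1 library left out, below 0 without NC 1 or rhChemerin 1. NEFL went to -0.094, -0.092 and -0.18 in the same 3 settings and to -0.061 with the block, and ran from -0.73, without rhChemerin 3, to 0.38. EMD went to -0.052, -0.051 and -0.052 in those 3 settings. With 1 library left out ICMT ran from -0.093 to 0.017, above 0 without rhChemerin 1, KRT79 from -0.82, without rhChemerin 3, to 0.85, and KRT81 from -1.48 to 0.55, without NC 3. The causes were not tested. Of the single-gene values under the alternatives, 361 kept their direction and side of the threshold, 26 passed it in the same direction and 17 changed sign. With 3 libraries a group the exact tests cannot go below p = 0.1.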
